A study of Caenorhabditis elegans with 2 samples.

Results

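Caenorhabditis elegans removes dying cells by having neighbouring cells engulf them, and 8 genes of that machinery were examined for binding by FKH-4, a transcription factor of the forkhead family. They are ced-1, ced-6 and ced-7, which act in recognition of the corpse, and psr-1, ced-2, ced-5, ced-12 and ced-10, which act through the GTPase Rac. All 8 were found in the annotation among 19973 protein-coding genes. The genes were named for their known roles, and the set was selected on the deposited peaks as well, since the signal of the ced-5 promoter peak was known when it was drawn up. Peak values at these genes are therefore given as a description, with no test. Every summit (the position of highest signal in a peak) from 5 kb upstream of each gene to its end was read from the deposited lists.

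FKH-4 was profiled by ChIP-seq with an antibody against GFP in 2 samples of whole hermaphrodite L1 larvae, labelled biological replicates 1 and 2. Both come from strain OP100, which stably carries the insertion wgIs100, encoding FKH-4 with a GFP-FLAG tag on its C-terminal end, and the allele unc-119(tm4063) III. The larvae had been starved after bleaching to synchronise them and were taken 6 h later. There is 1 group, so no condition is compared here. Binding was to a transgenic fusion protein in 1 line and in whole animals, so the cells in which a gene was bound cannot be told apart. The relaxed lists, which hold weak peaks by design, had 30000 peaks in replicate 1, 22442 in replicate 2 and 30000 in the pooled reads. The reproducible set (IDR, irreproducible discovery rate) held 1189 peaks. The sources used here give neither the read depth nor the scale of the peak signal, a value the authors' peak caller gave each peak, so signals are set against each other only within a list.

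Engulfment in this worm runs through partly parallel pathways. In one, the receptor CED-1 on the engulfing cell recognises the corpse with the help of the ABC transporter CED-7 and signals through the adaptor CED-6. In the other, the adaptor CED-2 and the bipartite exchange factor CED-5 and CED-12, with PSR-1 as a receptor that can act upstream, activate CED-10, the worm Rac, which rearranges actin so that the cell surface extends around the corpse. Most somatic deaths precede hatching, and a further group follows in early larvae.

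The IDR peaks at these genes stood at ced-5 and ced-2, the homologues of mammalian DOCK180 and CrkII. The sequences around the IDR summits of both genes are shown because a short element shared by many strong FKH-4 peaks lies beside a summit of each. They are on the ce11 build, plus strand, 5′ to 3′, which is also the coding strand of both genes. Capitals mark the 14-base element and ATAAACA, a forkhead-type motif, at the promoter of ced-5 (chrIV:10483817-10484017), the E-box CACGTG at the summit inside ced-5 (chrIV:10489576-10489676), and the element at ced-2 (chrIV:1595908-1596108).

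ced-5 promoter summit, 100 bases on either side: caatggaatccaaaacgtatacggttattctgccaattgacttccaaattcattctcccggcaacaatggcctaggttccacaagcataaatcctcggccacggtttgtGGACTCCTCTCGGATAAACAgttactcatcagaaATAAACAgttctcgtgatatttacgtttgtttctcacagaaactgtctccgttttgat

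ced-5 summit inside the gene, 50 bases on either side: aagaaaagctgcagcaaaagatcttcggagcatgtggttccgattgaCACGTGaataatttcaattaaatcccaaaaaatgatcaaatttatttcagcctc

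ced-2 upstream summit, 100 bases on either side: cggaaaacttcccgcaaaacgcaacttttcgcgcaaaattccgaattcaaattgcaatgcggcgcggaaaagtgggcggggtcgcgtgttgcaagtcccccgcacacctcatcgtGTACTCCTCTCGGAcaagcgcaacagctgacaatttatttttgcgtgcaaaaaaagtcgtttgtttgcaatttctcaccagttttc

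The promoter of ced-5 carried the 13th strongest of the 1189 IDR peaks. Its summit at 10483917 on chromosome IV lay 193 bp upstream of the only annotated transcription start site (TSS) of the gene, in the intergenic stretch of 452 bp before the divergent gene F01D4.5. Its signal was 355 in the pooled list. The signal was 156 in replicate 1, where the peak ranked 9th of 30000, and 197 in replicate 2, where it ranked 21st of 22442. The summits of replicate 1 and replicate 2 lay 2 bp and 1 bp from the pooled one, so both replicates placed the peak at the same position. The summit also fell in the promoter window of F01D4.5, taken as 1000 bp upstream to 200 bp downstream of a TSS, and the peak cannot be assigned to either gene from its position. Of the 956 coding genes with an IDR summit in a promoter window, 16 had one that ranked as high as that of ced-5 or higher, counting ced-5.

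**Figure D1:**
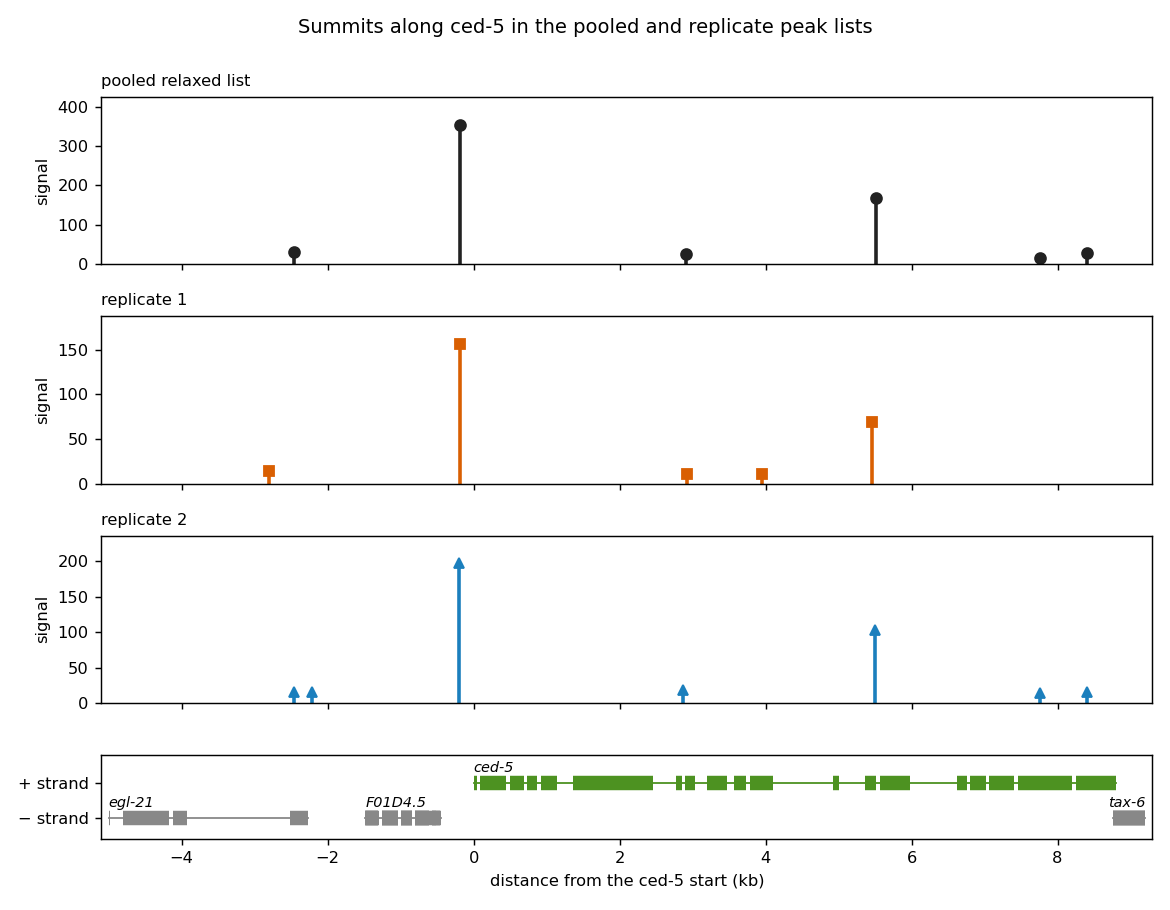
Peak signal (vertical axis, the authors' units, a separate scale in each panel) against distance from the ced-5 start (kb) in the pooled list, replicate 1 and replicate 2, with exons as boxes below. The tallest pooled stems stand 193 bp before the start and 5516 bp into the gene, with signals of 355 and 168. Those of replicate 1 stand 191 bp before and 5463 bp into it, and those of replicate 2 194 bp before and 5495 bp into it. The other pooled summits stay at 30.0 or below.

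A further strong peak lay inside ced-5. Its pooled summit at 10489626, 5516 bp downstream of the TSS, had a signal of 168 and ranked 133rd among the IDR peaks. In replicate 1 the signal was 68.9 at rank 140, and in replicate 2 it was 102 at rank 128. The pooled summit fell 1 bp into the 47 bp intron between exons 13 and 14 of 19, and the summits of replicate 1 and replicate 2, 53 bp and 21 bp to its left, fell in the coding sequence of exon 13. No TSS of a coding gene had this summit in its promoter window. Among the 209 IDR summits that lay inside genes and outside every promoter window, it was the 11th strongest. An IDR summit in the promoter together with another of that kind inside the gene was found at 24 of 19973 coding genes (0.12%), ced-5 among them. All 24 belong to the 956 genes with a promoter IDR summit, and ced-5 was known to have one. The fitting base for ced-5 is therefore the 956. The gene ced-5 is also long, at 8804 bp against a median of 2027 bp for coding genes, and the effect of length was not tested.

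The IDR peak at ced-2 stood nearer to another gene. Its summit at 1596008 on chromosome IV lay 1310 bp upstream of ced-2 and 184 bp upstream of the divergent gene npp-8, which encodes a nucleoporin. Only the promoter window of npp-8 held it. The signal was 92.02 in the pooled list (rank 471), 25.0 in replicate 1 (rank 1126) and 61.1 in replicate 2 (rank 390). The summit of replicate 1 lay 82 bp nearer to npp-8 than the pooled one, while that of replicate 2 was at the same base. The single other summit in the ced-2 window was a weak one of replicate 1 in an intron, with a signal of 14.7 at rank 8849. It lay 437 bp from the nearest TSS of ced-2, an internal one, and inside a promoter window of ced-2.

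**Figure D2:**
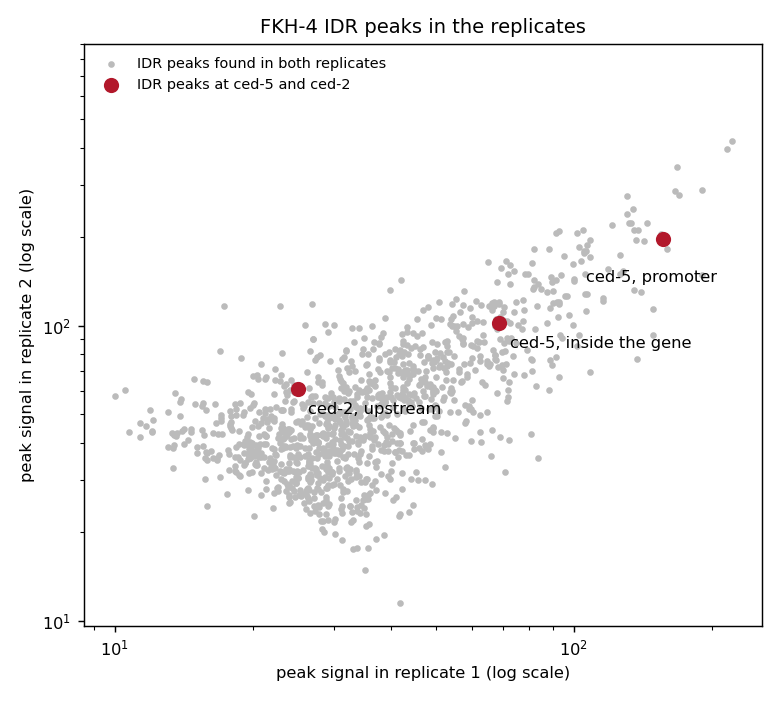
Peak signal in replicate 1 (horizontal, log scale) against replicate 2 (vertical, log scale) for IDR peaks with a summit within 200 bp in both replicates, each point a peak. The ced-5 promoter peak lies near the upper right end at 156 and 197, the peak inside ced-5 at 68.9 and 102, and the ced-2 peak at 25.0 and 61.1.

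Across the 8 genes, 1 (ced-5) had an IDR summit in its promoter window, where 4.79% of all coding genes had one. Over the longer window, from 5 kb upstream to the gene end, 2 of the 8 (ced-5 and ced-2) had one, against 10.2% of all coding genes. These windows were longer than usual, with a median of 9217 bp for the 8 genes and 7027 bp for all coding genes. The promoter count became 2 with ced-10 when the 1189 strongest peaks of replicate 1 alone were used, and 2 with ced-2 when the window was widened to 2000 bp upstream and 500 bp downstream. The shares of all coding genes at these settings were 4.53% and 6.35%. With each IDR peak given only to the nearest TSS, the count over the longer window was 1, because the ced-2 peak went to npp-8. The share of all coding genes was then 5.38%. The weakest of the 3 IDR summits at these genes was that of ced-2 at 92.02, well above the weakest IDR peak, at 51.7. Just outside the set stood a summit in the psr-1 window with a signal of 50.2 at rank 1257.

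Among words of 14 bases, the element was the one found within 100 bp of the most IDR summits, with 35 exact occurrences among 1189, and 71 (5.97%) when copies with at most 1 mismatch were counted. It was picked from these same peaks, so its counts are a description. Copies lay at 11 of the 20 strongest IDR summits and 29 of the 100 strongest. The median pooled signal was 158 for IDR peaks with a copy and 79.2 for those without. At ced-2 the copy was exact, GTACTCCTCTCGGA, from 15 to 28 bp to the right of the pooled summit. At ced-5 the copy differed by T2G, counted from 1 at the 5′ end of the element and with the base of the element first. It lay from 9 to 22 bp to the right of the pooled summit. Both copies had the same orientation, to the right of the pooled summit, the side facing ced-2 and ced-5. In replicate 1 the offsets differed, because its ced-2 summit lay 82 bp further to the left and its ced-5 summit 2 bp to the right of the pooled one. Only these 2 of the 8 longer windows held a copy, and in all coding genes 579 windows did (2.9%). Elsewhere the element was often without an IDR peak. Of its 428 copies in the genome, 76 (17.8%) had an IDR summit within 100 bp. The relaxed lists were not searched at the copies elsewhere.

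**Figure D3:**
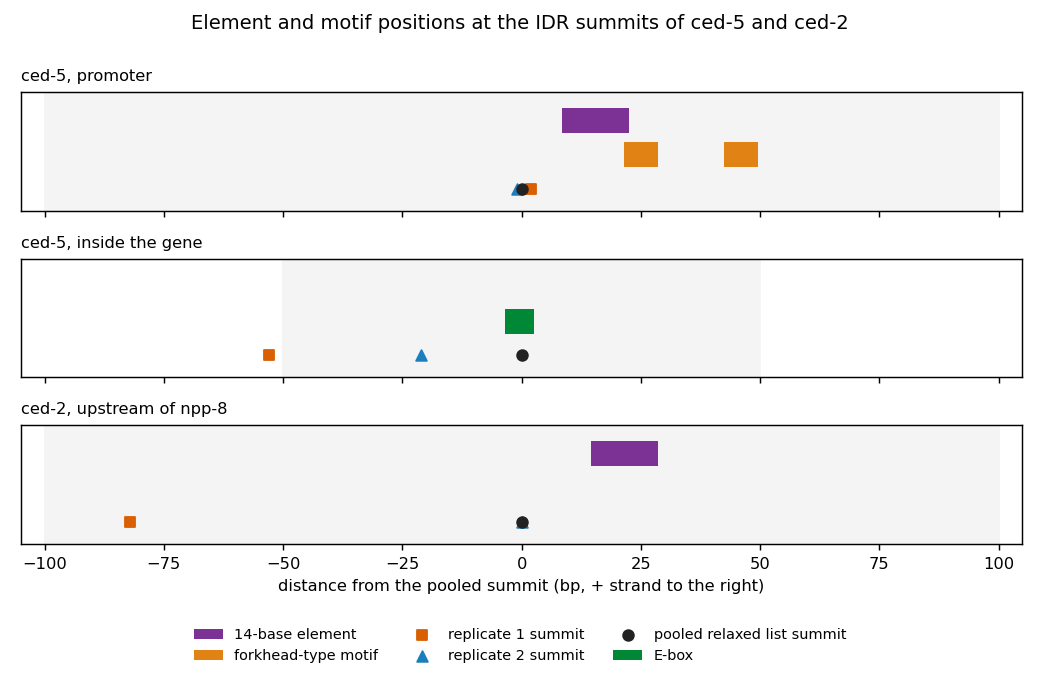
Positions of the 14-base element, the forkhead-type motif and the E-box relative to the pooled summit (bp, plus strand to the right) at the 3 IDR peaks, with the summits of each list as points; grey marks the sequence shown in the text. The element begins 9 bp from the pooled ced-5 promoter summit and 15 bp from the pooled ced-2 summit. The E-box spans the pooled summit inside ced-5, and the replicate summits there lie to its left.

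Of the 3 IDR peaks, the ced-5 promoter peak was the one with a match to a searched forkhead-type motif within 50 bp of the summit. Within 50 bp of the ced-5 promoter summit ATAAACA occurred in 2 places on the plus strand, starting 22 and 43 bp to its right, and the first shares 1 base with the element. On either strand this motif was found in 21 of the 1189 IDR windows (1.77%), and the ced-5 window was the only 1 of the 1189 with 2 or more. In promoter sequence from 250 bp before to 50 bp after the gene start, it was in 9.49% of all coding genes and in ced-5 and ced-12 among the 8. The related GTAAACA was in 1.01% of IDR windows and in none of the 3, and in 4.77% of the promoters, with ced-6 among the 8. GACGC was in 21.4% of IDR windows, GAGAGAG in 7.91% and TTCGCGC in 2.94%, and none was within 50 bp of the 3 pooled summits. TTCGCGC does occur in the ced-2 sequence shown, more than 50 bp to the left of the pooled summit. It lies within 50 bp of the replicate 1 summit there. In promoters of all coding genes they were found in 19.3%, 6.78% and 1.92%, with GACGC at ced-1 and ced-7 and no match for the others. The palindrome CACGTG, searched after the sequence inside ced-5 had been seen, was in 4.46% of IDR windows and in 5.82% of promoters, with ced-1 among the 8. Inside ced-5 it ran across the end of exon 13, so part of it is coding sequence. There it spanned the pooled summit but neither replicate summit. The IDR windows, 50 bp either side of a summit, are shorter than the promoter sequences. Shares in windows and in promoters are therefore not comparable for any of these motifs. The GC content within 100 bp of the summit was 41.8% at the ced-5 promoter, 33.8% inside ced-5 and 48.8% at ced-2, against a median of 40.3% for IDR peaks.

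Among genes with a symbol, the promoter peaks most like that of ced-5 in signal stood at rpl-35, cyn-10 and hsp-90. Likeness was the largest absolute difference in log2 signal over the pooled list and the 2 replicates, among 645 coding genes with a gene symbol and a promoter IDR peak found in both. The closest was rpl-35, a large ribosomal subunit gene, at a largest difference of 0.11 and with signals of 338 in the pooled list, 160 in replicate 1 and 182 in replicate 2. Next came cyn-10, a cyclophilin gene, at 0.14 and with signals of 337, 142 and 194 in the same order. The chaperone gene hsp-90 followed at 0.18, with 351, 138 and 210. Since they were picked for this closeness, it is no result. Peaks in promoters of genes without a symbol were not ranked, and among them the peak ranked 11th in the IDR set was closer to that of ced-5 than these 3. A copy of the element lay within 100 bp of the cyn-10 summit and not of the other 2.

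The remaining Rac-arm genes, ced-10, psr-1 and ced-12, had no IDR summit, and their strongest pooled summits had signals of 26.5, 50.2 and 29.8. At ced-10 the replicates differed. In replicate 1 a summit stood 13 bp downstream of the TSS, in the 5′ UTR, with a signal of 25.9 at rank 1031 of 30000, which is among the 1189 strongest of that list. Replicate 2 listed no summit in the ced-10 promoter. The pooled list had the summit at 26.5 and rank 6725, and no pooled summit of ced-10 was matched within 200 bp in both replicates. The gene lies 103 bp downstream of the same-strand gene tsg-101, an ESCRT component of endosomal sorting.

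At psr-1, a receptor gene that sits 93 bp behind the same-strand gene F29B9.5, the strongest summit (4650800 on chromosome IV) was 244 bp upstream of ubc-9, which encodes the SUMO-conjugating enzyme. Its signal was 50.2 in the pooled list, 22.9 in replicate 1 (rank 1520) and 26.5 in replicate 2 (rank 1590). This is the summit that missed the IDR set narrowly, and it lay 2462 bp upstream of the psr-1 TSS, across other genes. Within the promoter windows of psr-1, only replicate 1 had a summit, of 12.1 at rank 16615, in an intron.

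The exchange factor partner gene ced-12, on chromosome I (10222881 to 10227009), overlaps the end of the kinase gene csnk-1 by 24 bp. It had no promoter summit in any list. Its strongest pooled summit, of 29.8 at rank 4462, lay inside csnk-1, 446 bp downstream of a csnk-1 TSS, with a signal of 11.4 in replicate 1 and 13.5 in replicate 2. At DOCK180-like ced-5 the promoter signal was high in both replicates, while the gene of its ELMO-like partner CED-12 had none listed. The windows compared are unlike. Upstream of ced-5 lies an intergenic stretch of 452 bp, while the annotated start of ced-12 lies inside the end of csnk-1, which is on the same strand.

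The recognition genes had no IDR summit. At ced-1, on chromosome I (11851554 to 11868105), the strongest pooled summit lay 1916 bp upstream, with a signal of 29.0 at rank 4907. Replicate 1 had it at 24.6 and rank 1199, and replicate 2 had no summit within 200 bp. Another summit, 2263 bp upstream, was in both replicates at 11.1 and 13.5. The only promoter summit of ced-1 was one of replicate 2, with a signal of 10.02 at rank 18025, by an internal TSS.

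For the transporter gene ced-7, on chromosome III, both replicates had a promoter summit at the same base, 9579367, in an intron 247 bp upstream of an internal TSS. It was weak, with a signal of 9.68 in replicate 1 (rank 28859) and 12.3 in replicate 2 (rank 10644), and 24.5 in the pooled list. The authors' −log10 q, which is low where the evidence for a peak is weak, was 0.0812, 0.143 and 0.0769 in the same order. At such values the summit may be background. The strongest pooled summit in the ced-7 window, of 33.5, lay 3541 bp upstream, beyond the gene C48B4.3.

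The adaptor gene ced-6, on chromosome III, had no promoter summit in any list. Its strongest pooled summit, of 40.1 at rank 1939, lay at the start of ucr-1, a respiratory chain gene upstream on the same strand, 3583 bp from ced-6 itself. The signal there was 14.2 in replicate 1 and 25.5 in replicate 2. Inside ced-6 the pooled summits reached only 20.3.

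**Figure D4:**
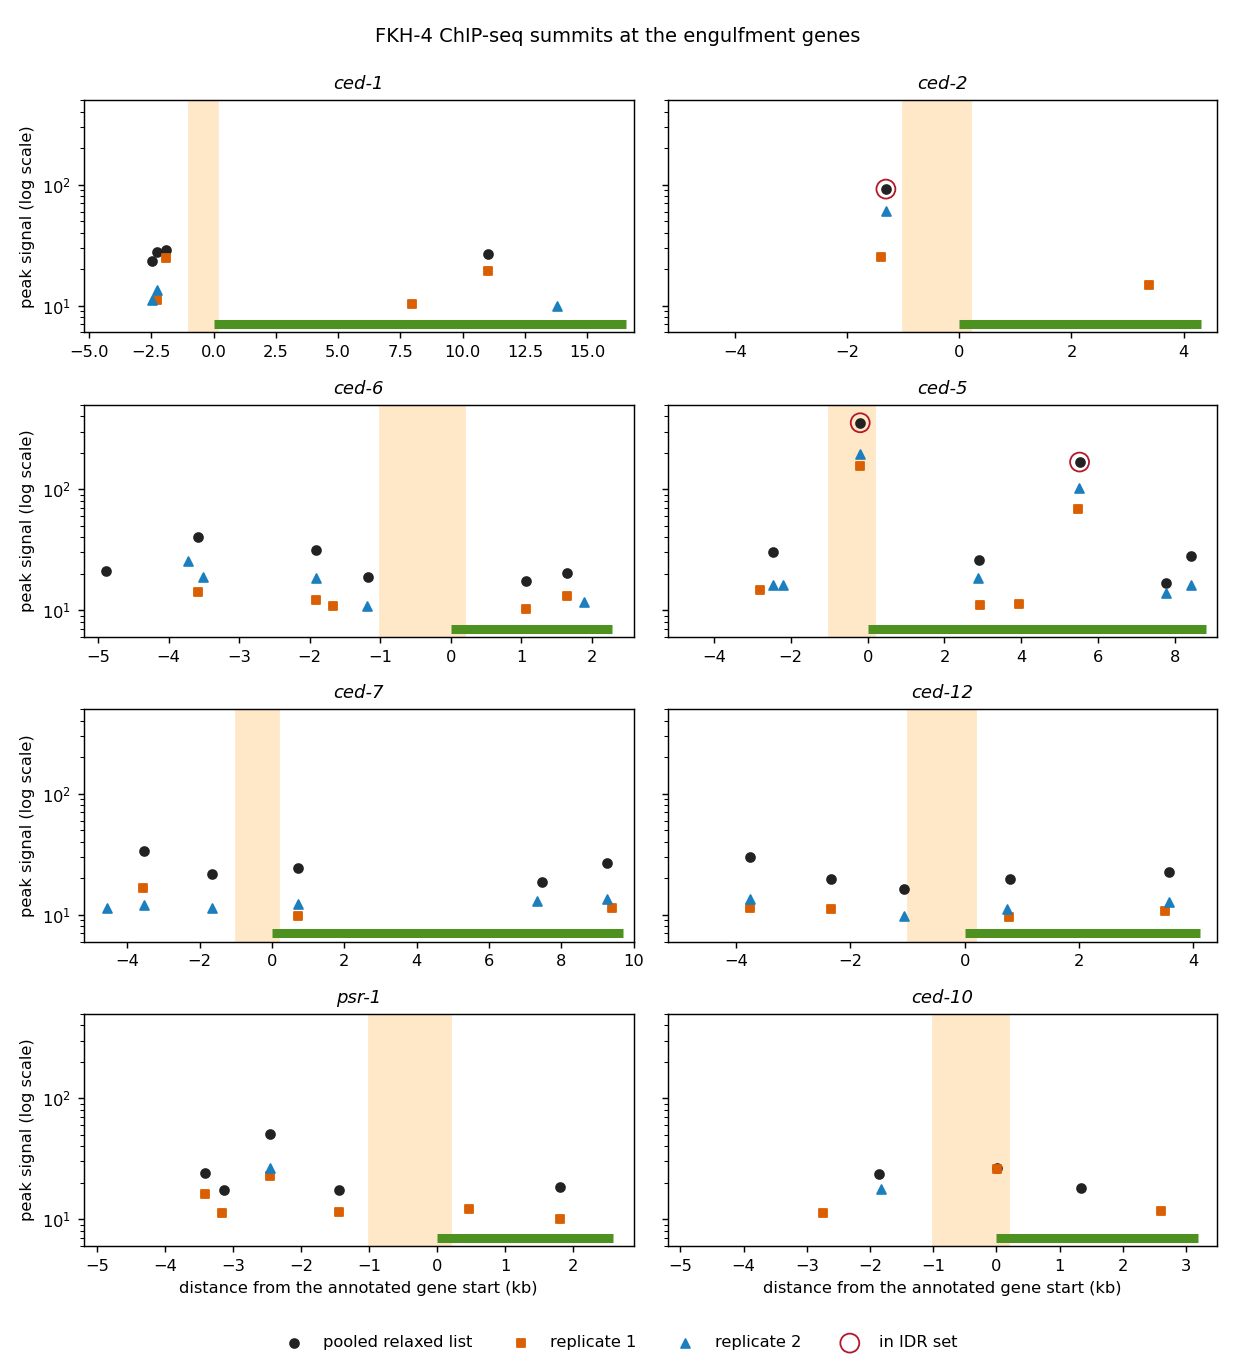
Peak signal (log scale) against distance from the annotated gene start (kb) for each of the 8 genes, with the gene as a green bar, the 1000 bp before to 200 bp after that start shaded, and red rings around summits of the IDR set. Signals may be compared within a list only; ringed summits stand at ced-5 and ced-2, and pooled summits of the other 6 genes stay at 50.2 or below.

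Weak summits in these windows were common, as they were across the genome. In the pooled list, the strongest summit of the 8 windows outside the IDR set, in the psr-1 window, had a −log10 q of 1.97. The next, in the ced-6 window, had 0.863, while the lowest value in the IDR set was 2.2. Weak summits of the relaxed lists may therefore be background. All 8 genes had a summit from 5 kb upstream to the gene end in replicate 1, where 86.3% of coding genes had one, and all 8 had one in replicate 2, where 74.2% did. The pooled relaxed list had 35 summits in the 8 windows, from 1 at ced-2 to 6 at ced-5 and ced-6. Of these 35, 14 (40%) had a summit within 200 bp in both replicates, beside 29.3% of all 30000 pooled peaks. Both counts include IDR peaks, which were selected for agreement between the replicates, 3 of them among the 35. In promoter windows, 3 of the 8 (ced-5, ced-7 and ced-10) had a pooled summit, against 40.9% of coding genes. Matching promoter summits in both replicates were found at 2 of the 8, ced-5 and ced-7, against 16.2% of coding genes, a share that 1 gene more or less would change widely. The median over the 8 genes of the strongest signal in the window was 36.8 in the pooled list, and 25.2 over all coding genes with a summit there. In replicate 1 it was 23.7 against 15.1, and in replicate 2 21.7 against 14.3. The windows of the 8 genes were longer, with medians of 9217 bp and 7027 bp, and the effect of length was not tested. At ced-6, ced-7, psr-1, ced-2 and ced-12 the strongest pooled summit lay nearest to a TSS of another gene.

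Genes that act before and after engulfment were read in the same way, in 6 lists of 68 genes in all. An IDR summit in the promoter window was found at 8 of them (11.8%), and over the longer window at 16 (23.5%), beside the shares of 4.79% and 10.2% for all coding genes. Lists of this size allow no statement on any one of them. The killing genes egl-1, ced-13, ced-9, ced-4 and ced-3 had no promoter summit of this kind. Over the longer window, ced-9, the BCL2-like inhibitor of death, and ced-4, the Apaf-1-like activator, had IDR summits of 79.3 and 51.8. Both lay in promoter windows of other genes. The ced-9 summit was 37 bp from a TSS of jmjd-4 and in the promoter windows of jmjd-4 and mev-1. The ced-4 summit was 204 bp from a TSS of nonu-1 and in the promoter windows of nonu-1 and F26A1.1. Which gene these peaks serve was not tested. None of the 7 genes for exposure of phosphatidylserine, the corpse signal, had an IDR summit in the promoter window, nor did any of the 9 genes for degradation of corpse DNA. In the relaxed lists, 2 of those 7 genes and 0 of those 9 had matching promoter summits in both replicates, as did 19 of all 68. The share for all coding genes was 16.2%.

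Among the genes that act upstream of or beside the Rac arm, 2 of 11 had a promoter IDR summit. They were srgp-1, a GTPase-activating protein of the srGAP family, and mig-2, a Rac-like GTPase. The srgp-1 summit lay 518 bp upstream, with a pooled signal of 135, and 53.0 in replicate 1 and 81.6 in replicate 2. The mig-2 summit lay 997 bp upstream, at the edge of the window, with a pooled signal of 61.4, and 35.7 in replicate 1 and 25.9 in replicate 2. Of the 12 genes for actin remodelling downstream of Rac, 2 had one. They were arx-3, an Arp2/3 subunit gene, with a signal of 128 at 185 bp upstream, and wve-1, the WAVE gene, with 113 at 637 bp upstream in a window shared with R06C1.4. The arx-3 peak had signals of 58.4 in replicate 1 and 68.3 in replicate 2, and the wve-1 peak 59.7 and 52.2.

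Of the 24 genes of phagosome maturation, 4 had a promoter IDR summit. The strongest was at the epsin gene epn-1, with a signal of 171 in the pooled list, 74.8 in replicate 1 and 87.3 in replicate 2. Next came ccz-1, which with sand-1 activates Rab7, at 107, then rab-7 itself at 78.2 and the tethering complex gene vps-33.1 at 54.8. The rab-7 summit was shared with mex-1 and W03C9.5 and lay nearest to W03C9.5, the ccz-1 summit was shared with tag-65 and the vps-33.1 summit with sdz-1. An IDR summit of 153 in the sand-1 window lay 42 bp from the TSS of hda-6. A copy of the 14-base element lay within 100 bp of the strongest IDR summit at 0 of these 16 genes, beside 5.97% of all IDR summits, and nothing is read from this count.

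**Figure D5:**
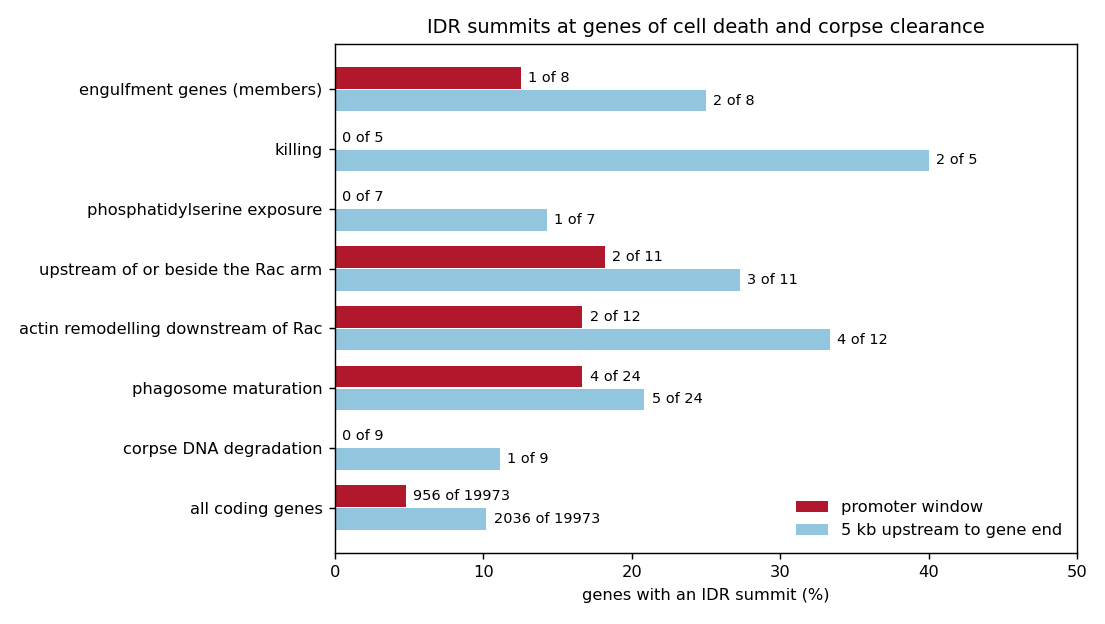
Percentage of genes with an IDR summit in the promoter window (red) or from 5 kb upstream to the gene end (blue) for the 8 engulfment genes, the 6 lists and all coding genes, with the counts beside each bar. The engulfment genes stand at 1 and 2 of 8, and all coding genes at 956 and 2036 of 19973.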

How the data were processed

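FKH-4 ChIP-seq peak lists of 2 L1 samples (replicates 1 and 2) and of their pooled reads were read as deposited, on ce11. Per the file listings deposited with the samples, each relaxed list was made from the alignments and 1 further file that is not described there, and the IDR set from the 3 relaxed lists. The labels name an experiment of possible controls, not analysed here. Aligner, peak caller, IDR threshold and depth were not given in the sources used here. The peak signal deposited by the authors is never negative, has no stated scale and served only for ranks and levels inside each list. The −log10 q deposited by the authors ran from 2.2 to 3.3 in the IDR set. The ce10 lists were not used.

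Genes came from the Ensembl release 115 annotation of WBcel235, the assembly of ce11, and sequence from the RefSeq copy of that assembly. No peak ran past a chromosome end. Positions count from 1. Promoter windows covered 1000 bp before and 200 bp after every TSS annotated for a coding gene, and summits of different lists were matched within 200 bp. Motifs were searched on both strands. The steps used Python 3.11.15 and pandas 2.3.3, and window assignment and matching were tested on simulated data.

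The genes, lists and motifs were chosen with earlier results of these data known. The text names the 8 genes, the genes of the lists with a promoter IDR summit, genes sharing or nearest to the IDR summits of the 8, and the 3 genes most like ced-5. Other neighbouring genes, list genes with a summit in the longer window and CACGTG were picked once their values had been seen. The alternatives varied the windows, the peak set, the match distance and the assignment, and left out each replicate.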

Additional observations from a re-analysis of the deposited data

How the results depend on the processing

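The promoter count of 1 of the 8 genes moved to 2 with the wider window (2000 bp upstream, 500 bp downstream), by ced-2. It ran from 1 to 2 when a replicate was left out, by ced-10 without replicate 2. The share of all coding genes, 4.79% in the main setting, was 6.35% with the wider window. It was 4.89% without replicate 1 and 4.53% without replicate 2. The promoter count was 1 with the narrower window, only IDR peaks above their median signal and the nearest TSS. The shares of all coding genes were then 3.79%, 2.72% and 5.38%. The count over the longer window, 2 of 8, moved to 1 with the nearest TSS. It ran from 2 to 3 when a replicate was left out, again by ced-10 without replicate 2, and was 2 with 2 kb upstream and with those peaks. For all coding genes the share was 5.38% with the nearest TSS, 10.4% without replicate 1 and 10.1% without replicate 2. It was 7.09% with 2 kb upstream and 5.6% with those peaks. The rank of the ced-5 promoter peak, 13th in the pooled list, was 9 to 21 when a replicate was left out, in lists of other lengths. The count of genes with matching promoter summits in both replicates, 2, moved to 1 (ced-5) among the strongest 10000 peaks of each replicate, and was 2 with match distances of 100 and 500 bp. The shares of all coding genes were 8.65% for the strongest 10000 peaks, 13.3% at 100 bp and 19.1% at 500 bp. All 3 IDR summits at these genes were matched in both replicates under each of these 3 settings. Apart from what these settings themselves change (window, peaks, assignment), the cause of each shift was not tested. No paired analysis was possible because the samples form 1 group. With 2 samples and unknown depth, a summit that is not listed may lie below the end of a list, which for replicate 1 and the pooled list is set at 30000 peaks.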
